A study of Mus musculus with 2 samples.

Results

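The Fc receptor and DAP12 pathway was examined here through 9 genes: the Fcγ receptor chains Fcgr1, Fcgr2b, Fcgr3 and Fcgr4, the lipid-sensing receptor Trem2, the adaptors Fcer1g and Tyrobp (the gene of DAP12), and the kinases Syk and Lyn. They were taken by name, as 9 of 21938 protein-coding gene records of GENCODE M21 (mm10), and not by any value measured in these cells. All 9 were found. The measurements are H3K36me3 ChIP-seq peak lists of macrophages cultured from C57BL/6J bone marrow without stimulation. H3K36me3 is the trimethylated form of lysine 36 of histone H3. The 2 libraries, biological replicates 1 and 2 of a single group, were started from 10 ng of DNA each, with fragments of 350 to 480 bp. The labels tie both to the same donor record and give sex and age as not collected. No second group exists, so no test was possible. Each value is given for both replicates, whose spread may be technical.

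Fcγ receptors bind the constant part of IgG on opsonised particles. Most of them carry no signalling motif of their own and pair with Fcer1g, a small membrane adaptor with an immunoreceptor tyrosine-based activation motif (ITAM), while Trem2 pairs with Tyrobp, a second ITAM adaptor. When receptors cluster, Src family kinases such as Lyn phosphorylate the ITAM tyrosines and Syk docks on them, which starts phagocytosis. Fcgr2b differs in carrying an inhibitory motif (ITIM) in its own tail. H3K36me3 is laid down behind elongating RNA polymerase II, mainly over the middle and 3′ part of transcribed genes, so a peak marks chromatin that has been transcribed and is not a measure of RNA.

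The DNA that encodes the ITAMs of the adaptors and the ITIM of Fcgr2b is shown because the 3 stretches were covered differently in replicate 2. The sequences were read from GRCm38.p6 on the coding strand, 5′ to 3′, with introns removed. Capitals mark the tyrosine codons and the leucine codon 3 codons after each.
Fcer1g ITAM: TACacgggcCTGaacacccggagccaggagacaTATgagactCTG
Tyrobp ITAM: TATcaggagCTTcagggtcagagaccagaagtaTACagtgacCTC
Fcgr2b ITIM: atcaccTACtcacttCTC
The Fcer1g stretch lies at chr1:171229889-171230072 on the minus strand and encodes codons 65 to 79 of 86. The Tyrobp stretch lies at chr7:30415670-30417382 on the plus strand and encodes codons 92 to 106 of 114. Each is 45 bases long and is split by an intron at the same place: 6 bases lie in one exon and 39 in the next. The Fcgr2b stretch, codons 317 to 322 of 340, is 18 bases in 1 exon at chr1:170961071-170961088 on the minus strand. In replicate 1 a peak covered 0 bases of all 3. In replicate 2 peaks covered all 45 bases in Fcer1g and all 18 in Fcgr2b, and 0 of the 45 in Tyrobp.

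By median share of the gene body, the ligand-binding chains were covered more widely than the adaptors and kinases in both replicates. The covered share is the percent of the gene body, from annotated start to end over all transcripts, that lies under peaks of a replicate. Its median over the 5 ligand-binding chains was 34.2% in replicate 1 and 60.8% in replicate 2, and over the 4 adaptors and kinases 2.75% and 25.8%. The medians thus differed by 31.5 percentage points in replicate 1 and by 35.0 in replicate 2, while over all coding genes the median was 0 in each. Taken apart, the adaptors had medians of 0% and 15.6%, and the kinases of 17.3% and 33.2%. The groups overlapped: Syk was covered more than Fcgr3 in both replicates, and in replicate 1 as widely as Fcgr2b. The kinases (65620 and 135008 bp) are longer than every ligand-binding chain (7747 to 17931 bp), so their length and role cannot be told apart.

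A gene was called marked at a covered share of 20% or more in both replicates. Of the 9 genes, 5 were marked, Fcgr1, Fcgr2b, Fcgr4, Trem2 and Syk, against 7.63% of all coding genes. The same 5 reached 20% in replicate 1, against 7.65% of coding genes. In replicate 2 it was 8 of 9, all but Tyrobp, against 23.3%. Of the 5 ligand-binding chains, 4 were marked, of the 2 adaptors 0 and of the 2 kinases 1. Keeping only peaks with a −log10 q of at least 5 left 2 marked, Fcgr4 and Trem2. At a limit of 50% of the body 0 of 9 were marked, since no member passed 45.7% in replicate 1.

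**Figure D1:**
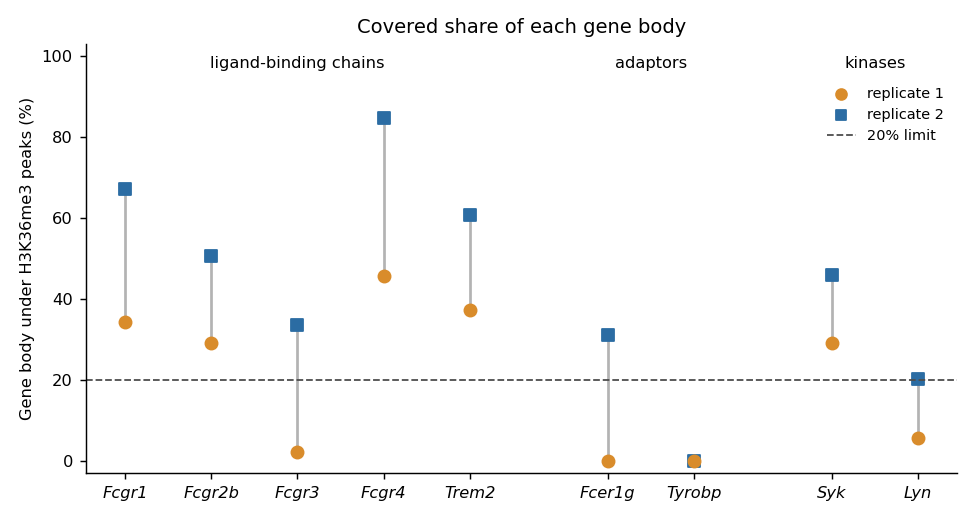
Percent of each gene body under H3K36me3 peaks in replicate 1 (circles) and replicate 2 (squares), grouped by role; the dashed line is the 20% limit. The ligand-binding chains span 2.14% to 45.7% in replicate 1 and 33.5% to 84.8% in replicate 2, and both points of Tyrobp lie at 0.

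The replicates differ in breadth throughout. Replicate 1 holds 32098 peaks over 28.5 Mb with a median enrichment of 3.22, and replicate 2 holds 58505 over 79.4 Mb with 3.83. Enrichment is the authors' own ratio of a peak over the background used by their caller. Depth is unknown, since the lists hold no read counts. A gene without a peak was therefore not detected in that list, which does not show that the mark is absent. As a check of cell identity, 8 macrophage markers were read, among them Csf1r, Adgre1 and Spi1. Of the 8, 3 reached 20% in replicate 1 and all 8 in replicate 2, against 7.65% and 23.3% of all coding genes. For T cells, B cells, NK cells, mast cells and basophils, neutrophils and dendritic cells, 30 markers were read and all lacked a peak in both lists. Lacking a peak is common: of all coding genes only 29.1% had one in replicate 1 and 38.3% in replicate 2. Ncr1 and Ms4a2, of NK and mast cells that use several of these genes too, were among the 30.

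Fcgr4, an activating receptor for IgG2 subclasses that pairs with Fcer1g, was the most widely covered of the 9 genes in each replicate. Its body of 10842 bp on chromosome 1 (171018920 to 171029761, plus strand) was 45.7% covered in replicate 1 and 84.8% in replicate 2. Of the coding genes whose length is within 25% of it, 98.7% and 99.8% were covered less. Replicate 1 had 5 peaks in the gene, the first starting 4052 bp from the gene start. Replicate 2 had 2, of which the longer ran for 7526 bp (171022960 to 171030485), the longest peak in any of the 9 genes, with an enrichment of 6.60. It passed the annotated end by 724 bp. All replicate 1 bases in the gene, 100%, were also covered in replicate 2.

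Fcgr1, the high-affinity IgG receptor, was covered at 34.2% and 67.2%. Its 11061 bp lie on chromosome 3 (96282909 to 96293969, minus strand), apart from the other Fcγ receptors. Replicate 1 placed 4 peaks and replicate 2 placed 2, with enrichments up to 3.66 and 6.08. The first of them began 4255 bp and 3224 bp into the gene. Exon bases toward the 3′ end were covered in part. In replicate 1 the peaks at 96283435 to 96283877 and 96284134 to 96284901 held 443 and 486 exon bases. In replicate 2 the peak at 96283080 to 96287422 held 2074. The flanking coding genes Hist2h2bb, 12.8 kb away, and BC107364, 140 kb away, had no peak.

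Fcgr2b, the inhibitory Fcγ receptor, was covered at 29.1% and 50.6% over its 17931 bp on chromosome 1 (170958617 to 170976547, minus strand). Of genes of similar length, 93.0% were covered less in replicate 1 and 85.6% in replicate 2. Its 4 and 5 peaks left the first 6715 bp bare in replicate 1 and the first 4537 bp in replicate 2. The peak of highest enrichment was at 170963611 to 170965120 in replicate 1 (4.47) and at 170962849 to 170967551 in replicate 2 (6.67). At the 3′ side the outermost peak started at 170960266 in replicate 1 and at 170960252 in replicate 2, inside the last exon, whose end lay bare. The antisense record Gm38204 overlaps 17.7% of the gene at its 5′ end and held 0 covered bases in either replicate.

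Fcgr3, a low-affinity activating receptor that also depends on Fcer1g, was the ligand-binding chain covered least. Replicate 1 had a single peak of 294 bp (171052643 to 171052936, enrichment 3.25), which covered 2.14% of the body. Replicate 2 had 3 peaks, led by one of 3205 bp (171051242 to 171054446, enrichment 4.10), which together covered 33.5%. Replicate 2 thus held 15.7 times the covered bases of replicate 1, where the ratio was 1.63 to 1.97 in the other 4 ligand-binding chains. The annotated body (171051174 to 171064935, minus strand, 13762 bp) includes an upstream start, and the 5532 bp before the principal transcript held 0 covered bases in both replicates. Over that transcript alone the covered share was 3.57% and 56.1%. Of the 50-base words of Fcgr3, 84.9% occurred once in the genome, against 92.5% for Fcgr2b and 96.4% for Fcgr4. Fcgr2b and Fcgr3 shared 141 such words. The part of repeated sequence in the values was not tested.

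Trem2, a receptor for lipids and apolipoproteins that signals through Tyrobp, was covered at 37.3% and 60.8% over 7747 bp of chromosome 17 (48346401 to 48354147, plus strand). Among genes of similar length 98% and 95.0% were covered less. Each replicate had 3 peaks. The longest was at 48350831 to 48352680 in replicate 1 (enrichment 3.66) and at 48350080 to 48352921 in replicate 2 (5.04). The principal transcript ends 1874 bp before the annotated end, which comes from a retained-intron transcript. Peaks covered 1041 of those bases in replicate 1 and 1815 in replicate 2. The neighbour Treml1, 5.77 kb beyond the gene on the same strand, had no peak in either list.

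Fcer1g, the common γ chain shared by Fc receptors, had 0 peaks in replicate 1 and 1 in replicate 2. That peak, 1496 bp long (171229576 to 171231071, enrichment 5.04, −log10 q 9.73), covered 31.2% of a body of 4794 bp (chromosome 1, 171229572 to 171234365, minus strand). It filled the 3′ part of the gene to within 4 bp of the annotated end and covered 117 of the 258 coding bases. Its −log10 q exceeded that of each peak in Fcgr3 in replicate 2, the highest of which was 6.61.

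Tyrobp had no peak in either replicate. It is the shortest of the 9 genes, 3826 bp on chromosome 7 (30413760 to 30417585, plus strand). The authors' pooled list had 0 peaks there too, while their replicated list had 1 of 374 bp with an enrichment of 2.72, which covered 9.78% of the body. Hcst, the gene of the sister adaptor DAP10, lies 0.126 kb away on the opposite strand and also had no peak. Of the 50-base words of the gene, 94.9% occurred once in the genome, and 97.6% in Fcer1g.

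Both adaptors are shorter than any other member, and short genes were seldom called. Of 4140 coding records under 5 kb, 4.59% had a peak in replicate 1 and 12.8% in replicate 2. A share of 20% was reached by 1.93% and 9.35% of them. Among records within 25% of the length of Tyrobp, 91.7% had no peak in replicate 1 and 78.5% in replicate 2. For Fcer1g those values were 89.5% and 76.6%, and in replicate 2 it was covered more than 87.8% of them. The short macrophage genes Cd68 (1941 bp) and Lyz2 (4991 bp) had the same pattern as Fcer1g, with 0% in replicate 1 and 43.7% and 25.5% in replicate 2. With these data the short length of the adaptors and their role cannot be told apart.

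**Figure D2:**
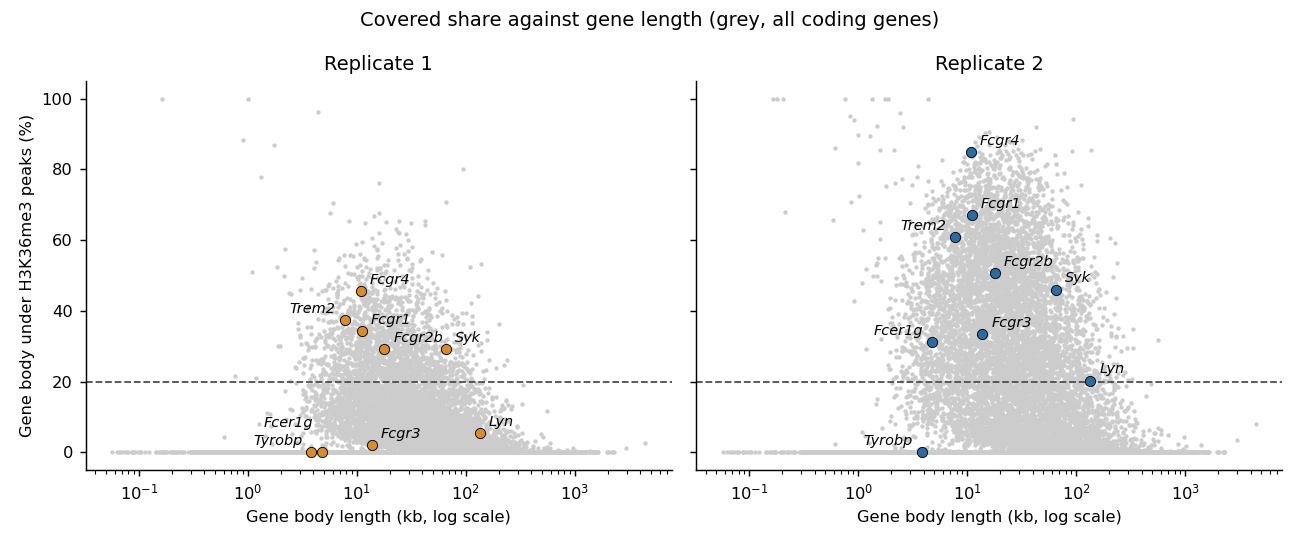
Covered share against gene body length (log scale) in replicate 1 (left) and replicate 2 (right); grey points are all 21938 coding gene records, coloured points the 9 genes, and the dashed line is the 20% limit. Fcgr4 lies near the upper edge at its length in replicate 2, and Tyrobp and, in replicate 1, Fcer1g lie at 0 with most short genes.

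Syk, the kinase that docks on phosphorylated ITAMs, was covered at 29.1% and 46.0% of 65620 bp on chromosome 13 (52583173 to 52648792, plus strand). It held 19 peaks in replicate 1 and 15 in replicate 2. Among genes of similar length 98% and 92.7% were covered less. The first peak began 26303 bp from the gene start in replicate 1 and 15653 bp in replicate 2. From there peaks recurred to the 3′ end, and the last one in replicate 2 passed it by 237 bp. The peak at 52610191 to 52614440 in replicate 2 had an enrichment of 7.29, the highest in any of the 9 genes. In replicate 1 the highest, 4.47, was at 52639053 to 52640535.

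Lyn, the Src family kinase that phosphorylates ITAM and ITIM tyrosines, was covered at 5.51% and 20.3% of 135008 bp on chromosome 4 (3678115 to 3813122, plus strand). It is the longest member, and its value in replicate 2 lies just above the 20% limit. By covered bases it ranked second of the 9 genes in both replicates, with 7438 bp in 10 peaks and 27460 bp in 19, after 19108 and 30196 bp in Syk. Of genes of similar length 83.6% and 85.1% were covered less. All replicate 1 peaks lay between 3776679 and 3791983. The principal transcript ends 21510 bp before the annotated gene end, at 3791612. Beyond that transcript peaks covered 371 bp in replicate 1 and 5494 bp in replicate 2. Replicate 2 also had 7 peaks from 3692035 to 3750352, with enrichments of 2.49 to 3.82, where replicate 1 had 0. Of its 50-base words 79.6% were unique, the lowest of the 9 genes, and the part of this in its coverage was not tested.

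Within the genes, peaks lay toward the 3′ end. In replicate 1 all 7 genes with a peak, and in replicate 2 all 8, had more of the body covered in the last 5 of 10 equal bins than in the first 5. Over all coding genes with a peak this held for 80.4% and 84.9%. The first 10% of the body held 0 covered bases in all 9 genes in both replicates. Cover there is rare in general: it was seen in 5.81% and 12.2% of coding genes with a peak. In the second 10%, Fcgr4 (99.8%) and Lyn (20.1%) were covered, in replicate 2 alone. Promoter windows of RefSeq (250 bases before to 50 after a start) were matched for 7 of the 9 genes, and 0 of their 9 windows touched a peak in either replicate. The share of such windows over all coding genes is not given.

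**Figure D3:**
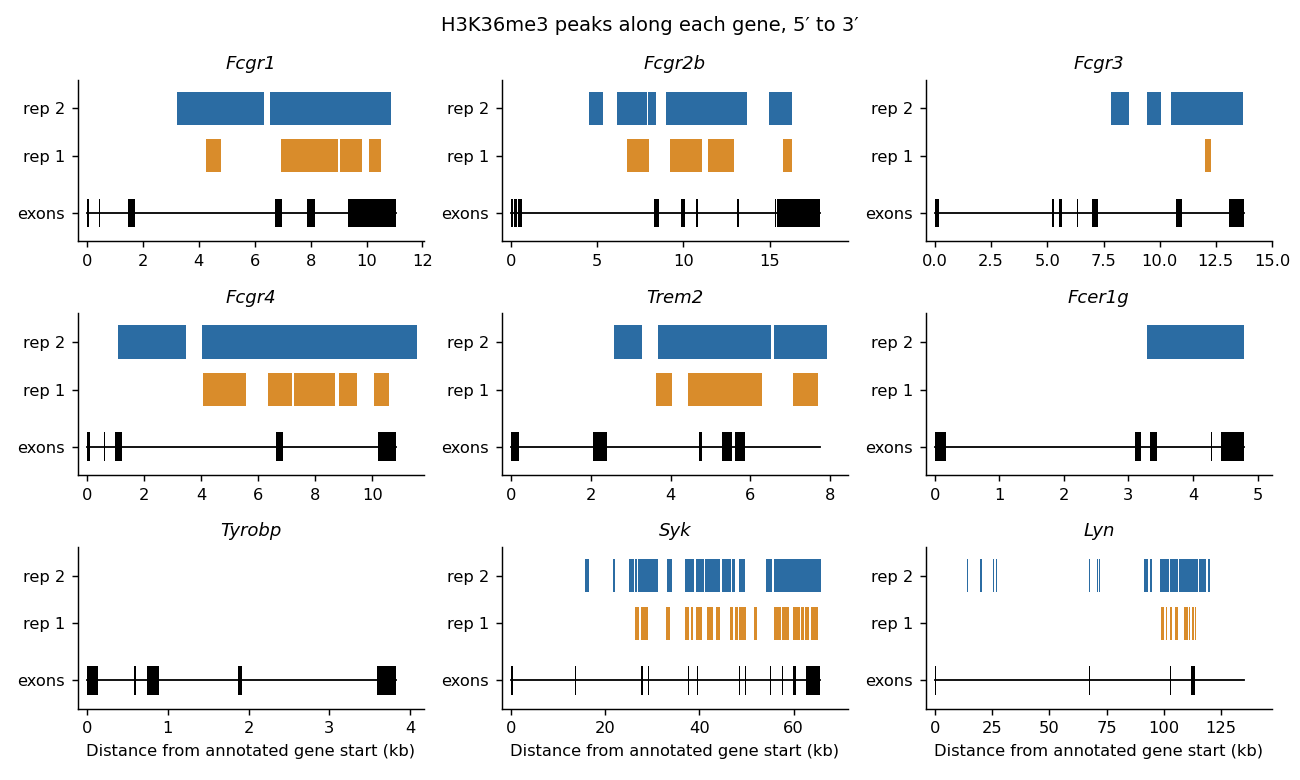
Peaks of replicate 1 and replicate 2 along each of the 9 genes, drawn 5′ to 3′ in kb from the annotated start; black boxes are exons of coding transcripts. Peaks begin inside each gene and lie mostly toward its 3′ end, replicate 2 extends toward the 5′ end of the replicate 1 peaks, and the Tyrobp panel holds none.

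Replicate 1 peaks lay largely within those of replicate 2, and replicate 2 covered further bases. Of the 46 replicate 1 peaks in these genes, 44 were overlapped by replicate 2 peaks over 50% or more of their bases, and the remaining 2, both in Syk (52630780 to 52631327 and 52634708 to 52635286), touched none. Of the 50 replicate 2 peaks, 27 touched a replicate 1 peak and 15 were overlapped over 50% or more of their bases. By bases, 90.1% of replicate 1 in Syk, 97.2% in Lyn, 98.3% in Trem2, 98.5% in Fcgr2b and 100% in Fcgr1, Fcgr3 and Fcgr4 lay under replicate 2. In the other direction the share was 6.37% in Fcgr3, 26.3% in Lyn and 50.9% to 60.4% in the other 5. Peak enrichment in the 9 genes ran from 2.58 to 4.47 in replicate 1 (median 3.25) and from 2.49 to 7.29 in replicate 2 (median 4.17).

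Exons of coding transcripts were covered more than introns in both kinases, and in the receptors the order varied. In Syk 69.9% of exon bases and 25% of intron bases were covered in replicate 1, and 86.5% and 41.9% in replicate 2. In Lyn the values were 39.2% and 4.62%, then 70.5% and 19.0%. Fcgr1 showed the same order, at 48.1% and 30.0%, then 80.1% and 63.3%. Fcgr2b showed the opposite, with 23.8% of exon and 30.5% of intron bases in replicate 1 and 40.2% and 53.4% in replicate 2. In Trem2 (52.2% and 34.8%, then 52.2% and 62.3%) and Fcgr4 (49.1% and 45.3%, then 81.6% and 85.2%) the order changed between replicates. In Fcgr3 exons held 0% and introns 2.42% in replicate 1, then 53.2% and 30.9%. In Fcer1g 64.6% of exon bases and 25% of intron bases were covered in replicate 2. Position along the gene was not equalised between the compared bases.

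The DNA at the summits of the strongest replicate 2 peaks of an inhibitory receptor, an adaptor and a kinase is shown to place them in their genes. Each window has 100 bases around the summit, in the direction of the gene (GRCm38.p6), and capitals mark exon bases of coding transcripts.
Fcgr2b summit: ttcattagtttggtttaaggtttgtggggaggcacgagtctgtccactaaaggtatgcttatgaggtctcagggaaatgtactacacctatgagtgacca
Fcer1g summit: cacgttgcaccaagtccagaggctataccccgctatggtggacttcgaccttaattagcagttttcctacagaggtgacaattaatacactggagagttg
Syk summit: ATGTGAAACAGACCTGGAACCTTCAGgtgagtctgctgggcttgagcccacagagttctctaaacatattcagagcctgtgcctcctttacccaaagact
The windows lie at chr1:170965909-170966008, chr1:171230265-171230364 and chr13:52611227-52611326. Those of Fcgr2b and Fcer1g are intronic throughout, and that of Syk holds the last 26 bases of an exon and the start of the following intron. Their GC content was 44%, 47% and 49%. Replicate 1 covered all 100 bases in Fcgr2b and Syk and 0 in Fcer1g.

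The low-affinity Fcγ receptors and Fcer1g are close neighbours on chromosome 1, within 276 kb. Fcgr2b, Fcgr4 and Fcgr3 lie in that order, separated by 42.4 kb and 21.4 kb, with Fcgr4 on the opposite strand to both others. The stretch between Fcgr2b and Fcgr4 held 0 covered bases in both replicates. Between Fcgr4 and Fcgr3 replicate 1 held 0, and replicate 2 held 1645 bp, from the Fcgr4 peak that runs on and from a separate peak of 921 bp (171049413 to 171050333). On the far side of Fcgr2b, the Fc receptor-like genes Fcrla and Fcrlb had no peak. Between Fcgr3 and Fcer1g, peaks lay in Sdhc (13% and 62.3%), Tomm40l (14.7% and 36.8%) and Nr1i3 (14.2% and 32.9%), which overlaps Tomm40l. Cfap126, Pcp4l1 and Apoa2 had none.

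For each gene, the coding gene of similar length with the most similar coverage was sought over 10 bins along the body in the 2 replicates. It was Ctsd for Fcgr1 (mean difference of 8.02 percentage points per bin), C1qb for Trem2 (11.3), Lgals3bp for Fcgr4 (13.5), Nfu1 for Fcgr2b (11.3) and Ldb1 for Fcgr3 (3.83). It was Med15 for Syk (10.3), Spag9 for Lyn (6.30) and Jagn1 for Fcer1g (0.530). For Tyrobp 1288 genes tied at 0.

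The rest of the pathway was followed in 6 lists of 75 further genes. Of these, 13 were marked in both replicates, 13 reached 20% in replicate 1 and 33 in replicate 2, with medians of 0.384% and 9.34%. Over all coding genes 7.63% were marked, and 7.65% and 23.3% reached 20% in replicates 1 and 2. The 20 downstream effectors had the highest median of the 6 lists in both replicates, 9.22% and 29%. The 9 further adaptors followed at 8.96% and 24.9%. Of the effectors 4 were marked and 13 reached 20% in replicate 2. Rac2, the leukocyte GTPase of the phagocyte oxidase (34.9% and 68.8%), and Vav1, its exchange factor (34.4% and 64.7%), were highest. The calcium channel gene Itpr2 had 0% and 0.337%, and Was, an actin regulator on the X chromosome, had no peak.

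Among the further adaptors 3 of 9 were marked, Lcp2 (SLP-76, 30.1% and 55.4%), Blnk (22.7% and 55.0%) and Sh3bp2 (33.0% and 39.8%). The last was named after its values were seen. Cd247, the ITAM chain of T and NK cells, had no peak, like Hcst. Of 13 negative regulators 2 were marked, the inositol phosphatase genes Inppl1 (SHIP2, 41.7% and 74.5%) and Inpp5d (SHIP1, 39.5% and 59.8%), and 8 reached 20% in replicate 2. The shares over all coding genes were 7.63% marked and 23.3% in replicate 2. Dok2 and Pilra had no peak.

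Among further Src and Syk family kinases, Fgr, Src, Blk and the Syk relative Zap70 had no peak in either replicate. Src and Zap70 were named after their values were seen. Lyn and Syk were thus covered where these 4 relatives were not. Over all coding genes only 29.1% and 38.3% had a peak.

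Of 15 further receptors that pair or signal with Tyrobp or Fcer1g, 4 had a peak in each replicate, against 29.1% and 38.3% of all coding genes. The other 11 had none, including Clec4e, Clec5a and Trem1, the activating relative of Trem2. The marked ones were Csf1r, the receptor of macrophage colony-stimulating factor (25% and 54.7%), and Cd300lb (30.0% and 47.2%). Cd300ld (5.57% and 24.3%) and Clec4n, the gene of Dectin-2 (3.35% and 20.4%), reached 20% in replicate 2. Of 10 further Fc receptor genes, the cytosolic antibody receptor Trim21 was marked (55.7% and 73.1%), and Fcrls had 0% and 33.4%. The neonatal Fc receptor gene Fcgrt had 0% and 6.94%. The IgE receptor chain Fcer1a and Fcamr had no peak. Trem1, Cd300ld, Clec4n and Fcgrt were named after their values were seen.

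**Figure D4:**
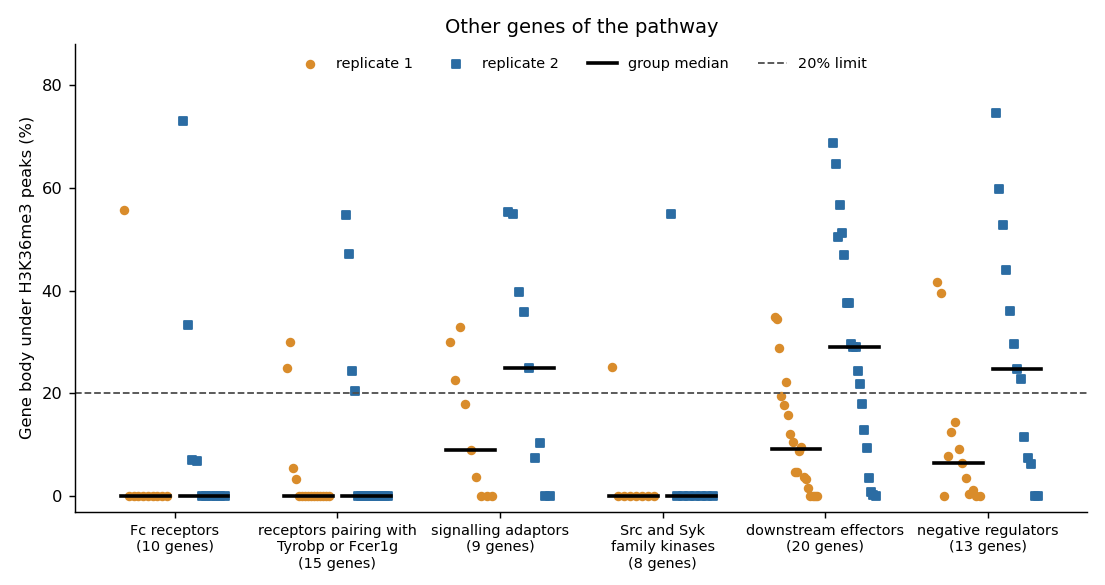
Percent of the gene body under peaks for 75 further pathway genes in 6 lists, with replicate 1 as circles and replicate 2 as squares; black bars are list medians and the dashed line is the 20% limit. Most other Fc receptors, paired receptors and Src or Syk family kinases lie at 0, as do most coding genes, of which 29.1% and 38.3% had a peak. In replicate 2, 13 of 20 downstream effectors lie above 20%, against 23.3% of all coding genes.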

How the data were processed

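Per the labels and the text deposited with the files, each replicate's peaks were called by the authors on its own alignments (mm10) and kept when found in pseudoreplicates. A pooled and a replicated list draw on both replicates. No source used here names the aligner or the peak caller. The deposited enrichment is a ratio over the caller's background. The deposited −log10 q served as a threshold in 1 alternative, and the deposited summit position to place windows. The deposited −log10 p and display score were not used in any result. Covered shares, bins (10 per body), exon coverage, transcript spans and 50-base words (66 chromosomes and contigs of GRCm38.p6, either strand) were computed with Python 3.11.15 and numpy 2.4.6, and the coverage step was tested on simulated data. Read length is unknown. Mitochondrial genes were left out of the 21938 records.

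The genes and lists were chosen with earlier results of these data known. The genes named are the 9 genes, their overlapping and nearest genes, the most similar genes and, of each pathway list, the 2 members covered most and the 2 covered least (ties by symbol). Alternatives were other peak thresholds, the combined lists, other gene bounds, other limits and each replicate alone. Some genes of the lists and neighbourhoods are not reported here. Not reported as results are small non-coding or pseudogene records that overlap Fcgr3, Fcgr4 and Lyn.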

Additional observations from a re-analysis of the deposited data

How the results depend on the processing

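The difference in median covered share between ligand-binding chains and adaptors with kinases, 34.8 percentage points over the mean of the replicates (SD between replicates 2.53), kept its direction under all 9 alternatives run for it. It was 24.8 with peaks of a −log10 q of at least 5, 31.8 with the authors' pooled list and 31.8 with their replicated list, 26.5 over the longest protein-coding transcript, and 31.5 to 35.0 with 1 replicate left out. The 5 members at 20% became 2 at a −log10 q of at least 5 and 0 at a limit of 50%. They became 7 in the pooled list and 7 in the replicated list, where Fcgr3 (36.1% in each) and Fcer1g (34.4% in each) also reached 20%. With 1 replicate left out the count was 5 to 8, the higher being that without replicate 1. The 13 further pathway genes became 3 at a −log10 q of at least 5, 34 in the pooled and 32 in the replicated list, 21 at a limit of 10% and 1 at 50%, and 13 to 33 with 1 replicate left out. With both replicates kept, 61 of 63 covered shares of single members under alternatives were unchanged or moved by less than the SD between replicates. The other 2 were Tyrobp in the replicated list (9.78%) and Syk in the pooled list (50.7%). That SD includes the difference in breadth between the replicates, so it is a loose yardstick. Fcgr1, counted among the 61, fell from 34.2% to 4.01% in replicate 1 at a −log10 q of at least 5. The unknown depth limits every statement on a gene without a peak. The cause of these shifts was not tested.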
